A study of Mus musculus with 31 samples.

Results

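The 10 genes described here, Ets1, Ets2, Elk3, Etv1, Etv4, Etv5, Fli1, Erg, Gabpa and Elf1, encode transcription factors of the ETS family, and they are 10 of the 21938 protein-coding genes annotated on chromosomes 1 to 19, X and Y of the mouse. The list gives them by name, and no measured value enters the rule. However, this list and the lists used for comparison were chosen with earlier results of these data known. Their shares beside those of all coding genes are therefore descriptions only. Peaks from ATAC-seq of the parental NIH-3T3 line were collected for each gene in 3 classes. A promoter peak lay no more than 1 kb from a transcript start of the gene, coding or not, a gene-body peak lay elsewhere over the gene, and a flank peak lay outside the gene but within 50 kb of it. This gave 98 of the 63456 peaks in the list, namely 11 promoter, 39 gene-body and 48 flank peaks.

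NIH-3T3 is an immortalised mouse embryonic fibroblast line. ATAC-seq exposes nuclei to the transposase Tn5, here at 0.5 µM, which inserts adapters into DNA that is free of nucleosomes, so that accessible sites gather sequenced fragments. The library came from the parental line, which carries no introduced transgene and for which the labels list no doxycycline. The methods describe doxycycline for the NIH-3T3 cells of the ATAC-seq without an exception for this line, so the sources differ on whether these cells received it. It is the 1 library analysed of 31 samples, and the other 30, in which a transcription factor or the rtTA3G activator was overexpressed, were not analysed here. There is therefore no replicate error and no test between conditions, and the values describe this library. In a bulk library, fewer cells with an open site and less opening per cell cannot be told apart.

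ETS factors share a DNA-binding domain, the ETS domain, that recognises sites around a GGAA core. Many members are end points of the RAS–ERK pathway, which phosphorylates them in response to growth factors, and several bind together with partners such as AP-1, the FOS–JUN dimers, or SRF. ETS sites are common at promoters of genes that most cells use, where GABPA and ELF1 are among the factors that bind them, while FLI1 and ERG are best known for their roles in blood and endothelium.

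Each peak was described by its fold enrichment, which is the fragment pileup at the summit with 1 added over the locally expected pileup with 1 added, and by the −log10 q of the peak caller. The number of fragments under the summit was recovered from the fold and the −log10 p and is given with an exact 95% Poisson interval, which covers counting error only. The weakest summit in the list had 10 fragments and the median summit had 29. A missing peak therefore means a signal below the threshold of the caller, not closed chromatin. A promoter peak marks accessible DNA and is not a measure of transcription.

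The label of a fibroblast line was checked at promoters of marker genes. A promoter peak was found for 11 of 12 fibroblast markers, against 53.7% of all protein-coding genes. Their median fold was 6.62, below the 9.86 of all coding genes with a promoter peak, and the folds ranged from 3.41 at Thy1 to 10.5 at Fn1, with none at Fap. None of 8 blood markers had one, and of 8 epithelial markers only Krt8 did, at fold 3.25. Of 8 endothelial markers 4 had one, about the share of all coding genes, from 3.58 at Tek to 12.8 at Cdh5, the endothelial cadherin, with a median of 7.36. The other endothelial markers, Kdr, Tie1, Cldn5 and Emcn, had none. How these relate to the values of Fli1 and Erg was not tested.

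The sequences below are those on which the description turns, read from the GRCm38 (mm10) reference on the sense strand of the listed gene. The ETS sequence CCGGAAG, a high-affinity form of the site, was searched on both strands from 50 bp before to 50 bp after each summit. It occurred under 2 of the 98 peaks, which are shown first with the match in capitals, read here as its reverse complement.
Gabpa promoter peak, chr16:84835021-84835047 (plus strand): agggtaagtgCTTCCGGgtccctcagc
Dhx8-start peak in the Etv4 flank, chr11:101732965-101732991 (minus strand): acagcttccaCTTCCGGgtcggcgctc
The AP-1 sequence TGANTCA was more frequent. It is in capitals in the summit windows of 6 of the strong peaks away from starts, and the Etv5 window holds 2 copies. These 6 are a selection. Among the strongest gene-body or flank peaks of each gene that are not printed, the Etv1 flank peak holds it too. The flank peaks of Erg, Fli1, Gabpa and Elf1 and the gene-body peaks of Fli1 and Elf1 do not.
Ets1 flank, chr9:32806336-32806436 (plus strand): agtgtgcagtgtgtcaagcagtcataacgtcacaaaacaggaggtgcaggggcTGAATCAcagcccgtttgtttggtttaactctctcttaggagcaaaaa
Ets1 intron, chr9:32749897-32749997 (plus strand): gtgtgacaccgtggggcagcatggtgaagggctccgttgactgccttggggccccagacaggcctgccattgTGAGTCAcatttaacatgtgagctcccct
Elk3 flank, chr10:93332481-93332581 (minus strand): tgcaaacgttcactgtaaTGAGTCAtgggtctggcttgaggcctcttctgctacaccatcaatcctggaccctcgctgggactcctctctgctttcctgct
Elk3 intron, chr10:93287789-93287889 (minus strand): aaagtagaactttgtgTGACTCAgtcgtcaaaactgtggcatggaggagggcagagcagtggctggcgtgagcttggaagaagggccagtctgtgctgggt
Etv5 intron, chr16:22389229-22389329 (minus strand): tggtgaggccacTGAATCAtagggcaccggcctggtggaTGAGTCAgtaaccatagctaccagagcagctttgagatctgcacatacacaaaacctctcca
Erg intron, chr16:95573399-95573499 (minus strand): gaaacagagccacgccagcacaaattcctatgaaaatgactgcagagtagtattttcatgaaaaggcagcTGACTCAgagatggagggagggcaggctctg
The strongest peak within Etv1 held none of the sequences searched, and the strongest flank peak of Ets2 held a CArG box, the site of SRF, in capitals.
Etv1 intron, chr12:38844100-38844200 (plus strand): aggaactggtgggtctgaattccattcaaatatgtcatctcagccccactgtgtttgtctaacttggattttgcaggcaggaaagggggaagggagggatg
Ets2 flank, chr16:95728976-95729076 (plus strand): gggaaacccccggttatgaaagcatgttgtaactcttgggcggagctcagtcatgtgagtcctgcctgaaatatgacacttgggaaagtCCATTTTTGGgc

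A promoter peak was present at 9 of the 10 genes, the exception being Erg, against 53.7% of all protein-coding genes. The strongest promoter peak of the 9 had a median fold of 10.8, compared with 9.86 over the 11788 coding genes with such a peak, and a median of 84 fragments compared with 64. The genes fell apart into 5 with a fold of 10.8 to 12.4 (Gabpa, Etv5, Ets1, Ets2 and Etv1) and 4 with a fold of 3.77 to 7.69 (Elf1, Etv4, Fli1 and Elk3). By fragments under the summit the order ran Gabpa, Ets1, Etv1, Etv5, Ets2, Elf1, Etv4, Elk3 and Fli1, and the counting intervals of every neighbouring pair in that order overlapped. The intervals of the ends did not overlap, with 138 fragments at Gabpa (116 to 163) and 17 at Fli1 (9.90 to 27.2).

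**Figure D1:**
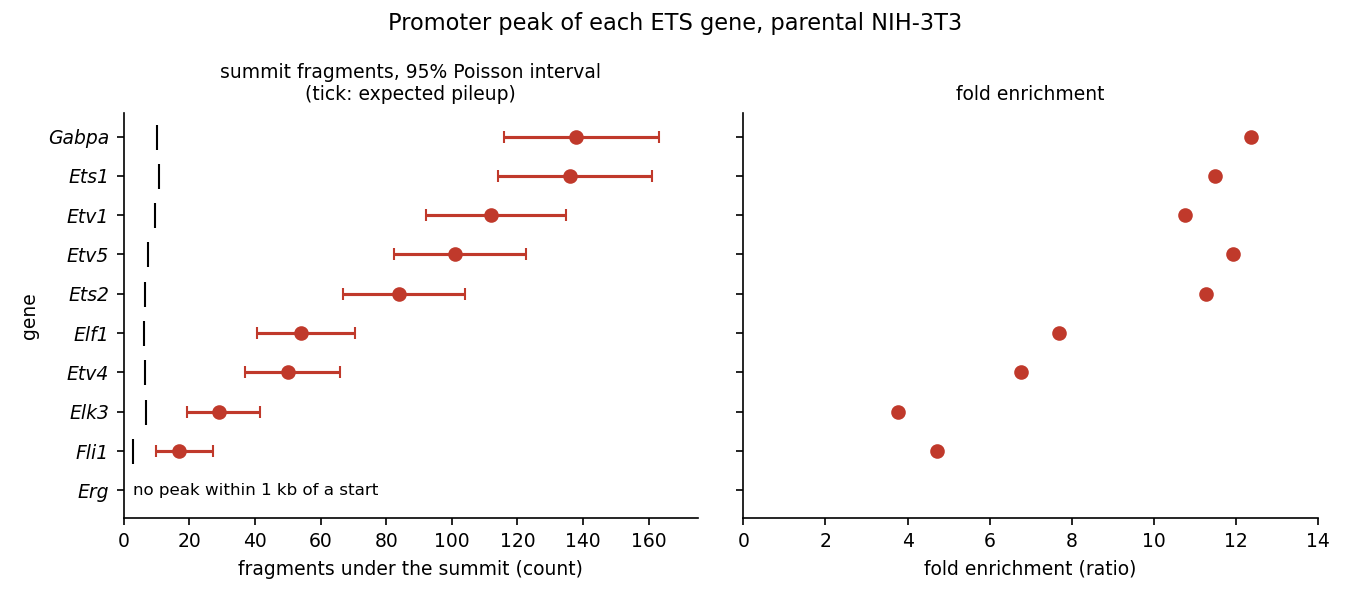
Strongest promoter peak of each ETS gene in parental NIH-3T3 cells, with the fragments under the summit and their 95% Poisson interval on the left (the tick is the expected pileup) and the fold enrichment on the right. The genes are ordered by fragments, from 138 at Gabpa to 17 at Fli1, and Erg has no peak within 1 kb of a start.

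**Figure D2:**
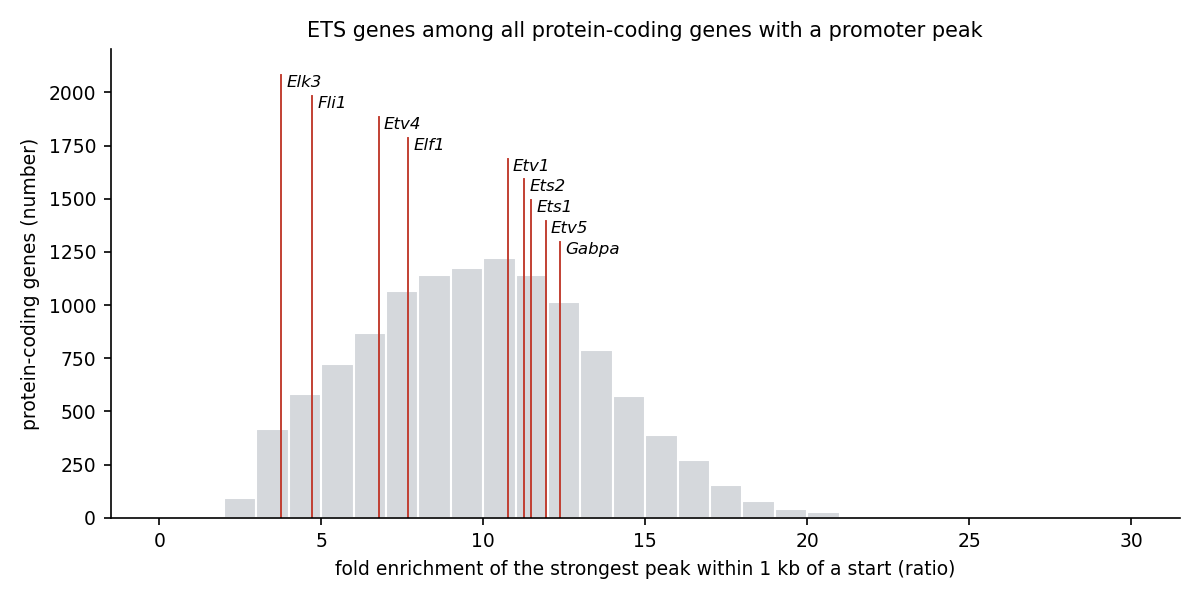
Number of protein-coding genes by the fold enrichment of their strongest promoter peak, in steps of 1 (11788 genes, grey bars), with a line for each of the 9 ETS genes that have one. Gabpa at 12.4 lies above 74.8% of the genes and Elk3 at 3.77 above 3.24%.

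ETS1 and ETS2 are the founding members of the family and are phosphorylated by ERK. Ets1 (chr9:32636221-32757820, plus strand) has 2 start regions, a start region being a run of transcript starts no more than 500 bp apart. The more 5′ one serves 2 non-coding transcripts, and the other, 59982 bp downstream of the most 5′ start, serves all 4 coding transcripts. The peak over the coding starts (chr9:32695588-32696390) had a fold of 11.5, a −log10 q of 93.0 and 136 fragments (114 to 161), with its summit upstream of a start, at -95 bp. That fragment number was higher than at 94.4% of the coding genes with a promoter peak, whereas its fold was higher than at 67.0%. The expected pileup around it was 10.9 fragments, the highest at any promoter of the 10 genes and above the value of 2.81 that was most common in the list, and a higher expected pileup lowers the fold for the same number of fragments. At the non-coding starts the peak (chr9:32634874-32635267) lay 954 bp away and was weaker, at fold 7.34 with 31 fragments (21.1 to 44.0).

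Ets1 also had the most peaks within the gene, at 16, all with summits in its introns and 2 of them within 1 kb of a start of the predicted gene Gm27240. Among the 3415 coding genes of 0.5 to 2 times its length the median was 2, and 0.673% had as many. The strongest of the 16 (chr9:32749584-32750187) had a fold of 13.2 and 84 fragments. The strongest of its 12 flank peaks, and of all 98 peaks by fold, lay downstream of the gene (chr9:32806015-32806668) at fold 17.8, with 88 fragments and a −log10 q of 80.3. Both hold the AP-1 sequence, as printed above.

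Ets2 (chr16:95702075-95721051, plus strand) showed the opposite layout, with a strong promoter peak and no peak elsewhere in the gene. The promoter peak (chr16:95701823-95702997) had a fold of 11.3 with 84 fragments (67.0 to 104). None of its other 3 start regions had a peak within 1 kb. The gene had 8 flank peaks, the strongest of them (chr16:95728762-95729267) at fold 11.4 with 57 fragments, about the fold of its promoter. This is the peak with the CArG box, which was under 1 of the 81 peaks away from starts compared with 0.625% of all such peaks.

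Etv1, Etv4 and Etv5 form the PEA3 group, whose genes are induced by FGF signalling through ERK and repressed by the protein CIC. Of the group, Etv1 and Etv5 had strong promoter peaks and strong intronic peaks, and Etv4 had neither. Etv5 (chr16:22381309-22439719, minus strand) carried a promoter peak (chr16:22439330-22440489) of fold 11.9, with a 95% interval of 82.3 to 122.7 fragments over an expected 7.55. Its intronic peak at chr16:22389113-22389634 was the second strongest of all 98 by fold, at 16.3 with 96 fragments, and holds the pair of AP-1 sequences. Another intronic peak (chr16:22428787-22429374) reached 13.6 with 82 fragments, and the last of the 3 was close to the detection limit at 2.89 with 10 fragments. Etv5 was the only one of the 10 genes with no flank peak.

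Etv1 (chr12:38779380-38870484, plus strand) had the widest promoter peak of the 10 genes, 2059 bp (chr12:38778544-38780602), wider than at 99.7% of the coding genes with one. It covered starts of both of the first 2 of its 5 start regions. The summit, with a fold of 10.8 and 112 fragments (92.2 to 135), lay at -652 bp from the most 5′ start, upstream of it. Within the gene a peak at chr12:38843659-38844330 had a fold of 16.0 and 136 fragments, as many as the coding promoter of Ets1. Introns held a further peak of fold 14.4 (chr12:38788459-38788905, 97 fragments) and one of 11.04 (chr12:38793072-38794068, 75 fragments). Its 2 flank peaks, both downstream, stood at 13.9 with 56 fragments and 13.2 with 50 fragments. With the exception of a gene-body peak of 4.46, every peak assigned to Etv1 had a fold of 10.8 or more.

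Etv4 (chr11:101769742-101785371, minus strand) differed from its relatives in both respects. Its promoter peak (chr11:101784806-101785708) had a fold of 6.77 and 50 fragments (37.1 to 65.9), and the interval did not overlap those of Etv1 and Etv5. No peak lay in the rest of the gene, which is the shortest of the 10 at 15630 bp. The strongest of its 7 flank peaks (chr11:101732681-101733236), at 12.2 with 68 fragments, lay at a start of Dhx8, an RNA helicase gene, and carries the ETS sequence printed above.

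ELK3, also called Net, is a ternary complex factor that binds DNA together with SRF and is a target of ERK. Elk3 (chr10:93247414-93311135, minus strand) combined the lowest promoter fold of the 9 genes with many peaks elsewhere. The promoter peak (chr10:93310943-93311056) was 114 bp wide, with a fold of 3.77 and 29 fragments (19.4 to 41.6) over an expected 6.97. Of the coding genes with a promoter peak, 3.24% had a lower fold and 0.424% a narrower peak. A further peak of fold 3.33 lay 1043 bp from a start, just outside the 1 kb limit, and was counted with the gene body.

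In contrast, Elk3 had 9 gene-body peaks, a number reached by 1.44% of the 5485 coding genes of similar length (median 1), and 9 flank peaks. The strongest within the gene (chr10:93287577-93288632) had a fold of 13.2 and 117 fragments (96.8 to 140), against 29 under the promoter peak. Nearer to the promoter, an intronic peak at chr10:93305817-93306628 had a fold of 10.7 with 84 fragments. Upstream, flank peaks reached 15.1 (chr10:93332303-93332730, 85 fragments) and 13.6 (chr10:93343397-93343996, 95 fragments). In all, 18 of its 19 peaks lay more than 1 kb from its starts. At the far end of the gene 2 of the weak gene-body peaks, of fold 2.85 and 3.79, also lay over the neighbouring gene Cdk17.

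FLI1 and ERG are close relatives, known as regulators of blood and endothelial cells. Fli1 (chr9:32422204-32542861, minus strand) had 1 promoter peak (chr9:32540212-32541087), at fold 4.73 with 17 fragments (9.90 to 27.2). It lay in an intron, 508 bp from the more 3′ of the 2 annotated starts, and covered neither. Over its 120658 bp the gene held a single other peak, of fold 3.94 with 14 fragments (chr9:32444001-32444155). As many or more were found in 76.7% of the 3448 coding genes of similar length. Its strongest flank peak (chr9:32591767-32592813, fold 9.95, 70 fragments) also lies within 50 kb of Ets1.

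Erg (chr16:95359169-95586593, minus strand) was the gene without a promoter peak. The nearest peaks lay 12717, 42799, 48561 and 18489 bp from its 4 start regions, in 5′ to 3′ order. The gene was not devoid of accessible sites, however, and its 4 intronic peaks were stronger than the one of Fli1. They had folds of 11.5 (chr16:95573164-95573876, 56 fragments), 11.1 (chr16:95436635-95436995, 60 fragments), 8.84 (33 fragments) and 7.17 (37 fragments). As many as 4 were found in 50.7% of the 1821 coding genes of similar length, and the median was 4, so that the number was ordinary for a gene of 227425 bp. Of its 4 flank peaks the strongest (chr16:95608713-95608956), upstream of the gene, had a fold of 9.96 with 49 fragments.

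GABPA binds DNA as a complex with GABPB and acts on many nuclear genes for mitochondrial proteins. Gabpa (chr16:84834925-84863779, plus strand) had the strongest promoter peak of the 10 genes (chr16:84834456-84836258), with a fold of 12.4, a −log10 q of 98.7 and 138 fragments, more than at 94.95% of the coding genes with one. The peak was 1803 bp wide and also covered a start of the divergent gene Atp5j, a subunit of the mitochondrial ATP synthase. The signal of the 2 genes cannot be separated. It is the only promoter peak of the 10 genes with the ETS sequence, 106 bp downstream of the most 5′ start. Outside it the gene had no gene-body peak and 4 flank peaks, of which the strongest (fold 8.95, 43 fragments) lay at a start of Jam2, a junctional adhesion gene.

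ELF1 is a widely expressed member that binds ETS sites at many promoters. Elf1 (chr14:79481194-79582494, plus strand) had a peak at each of its 2 start regions. The peak at the first (chr14:79480748-79482567) had a fold of 7.69 and 54 fragments (40.6 to 70.5) and spread over 1820 bp, which also took in a start of the neighbouring gene Wbp4. Its summit lay in an exon of Wbp4, at -22 bp from the Elf1 start, so the signal of the 2 genes cannot be separated. The peak at the second (chr14:79515606-79515918), 34492 bp into the gene, had its summit 2 bp from a start, with a fold of 6.83 and 25 fragments (16.2 to 36.9). This start region lies in DNA of 41.3% GC, and an AP-1 sequence stands in capitals in the 250 bases before it, from the RefSeq GRCm38.p6 promoter table.
Elf1, bases before the second start region, chr14:79515424-79515673 (plus strand): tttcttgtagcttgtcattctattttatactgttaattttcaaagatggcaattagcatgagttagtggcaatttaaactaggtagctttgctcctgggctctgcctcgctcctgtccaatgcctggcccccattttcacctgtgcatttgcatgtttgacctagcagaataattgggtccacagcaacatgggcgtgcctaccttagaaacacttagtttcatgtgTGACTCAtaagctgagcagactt
Its 2 gene-body peaks were weak, at 5.78 and 4.46. The single flank peak (chr14:79587191-79588011), at fold 14.4 with 90 fragments, lay at a start of Sugt1, a co-chaperone gene.

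**Figure D3:**
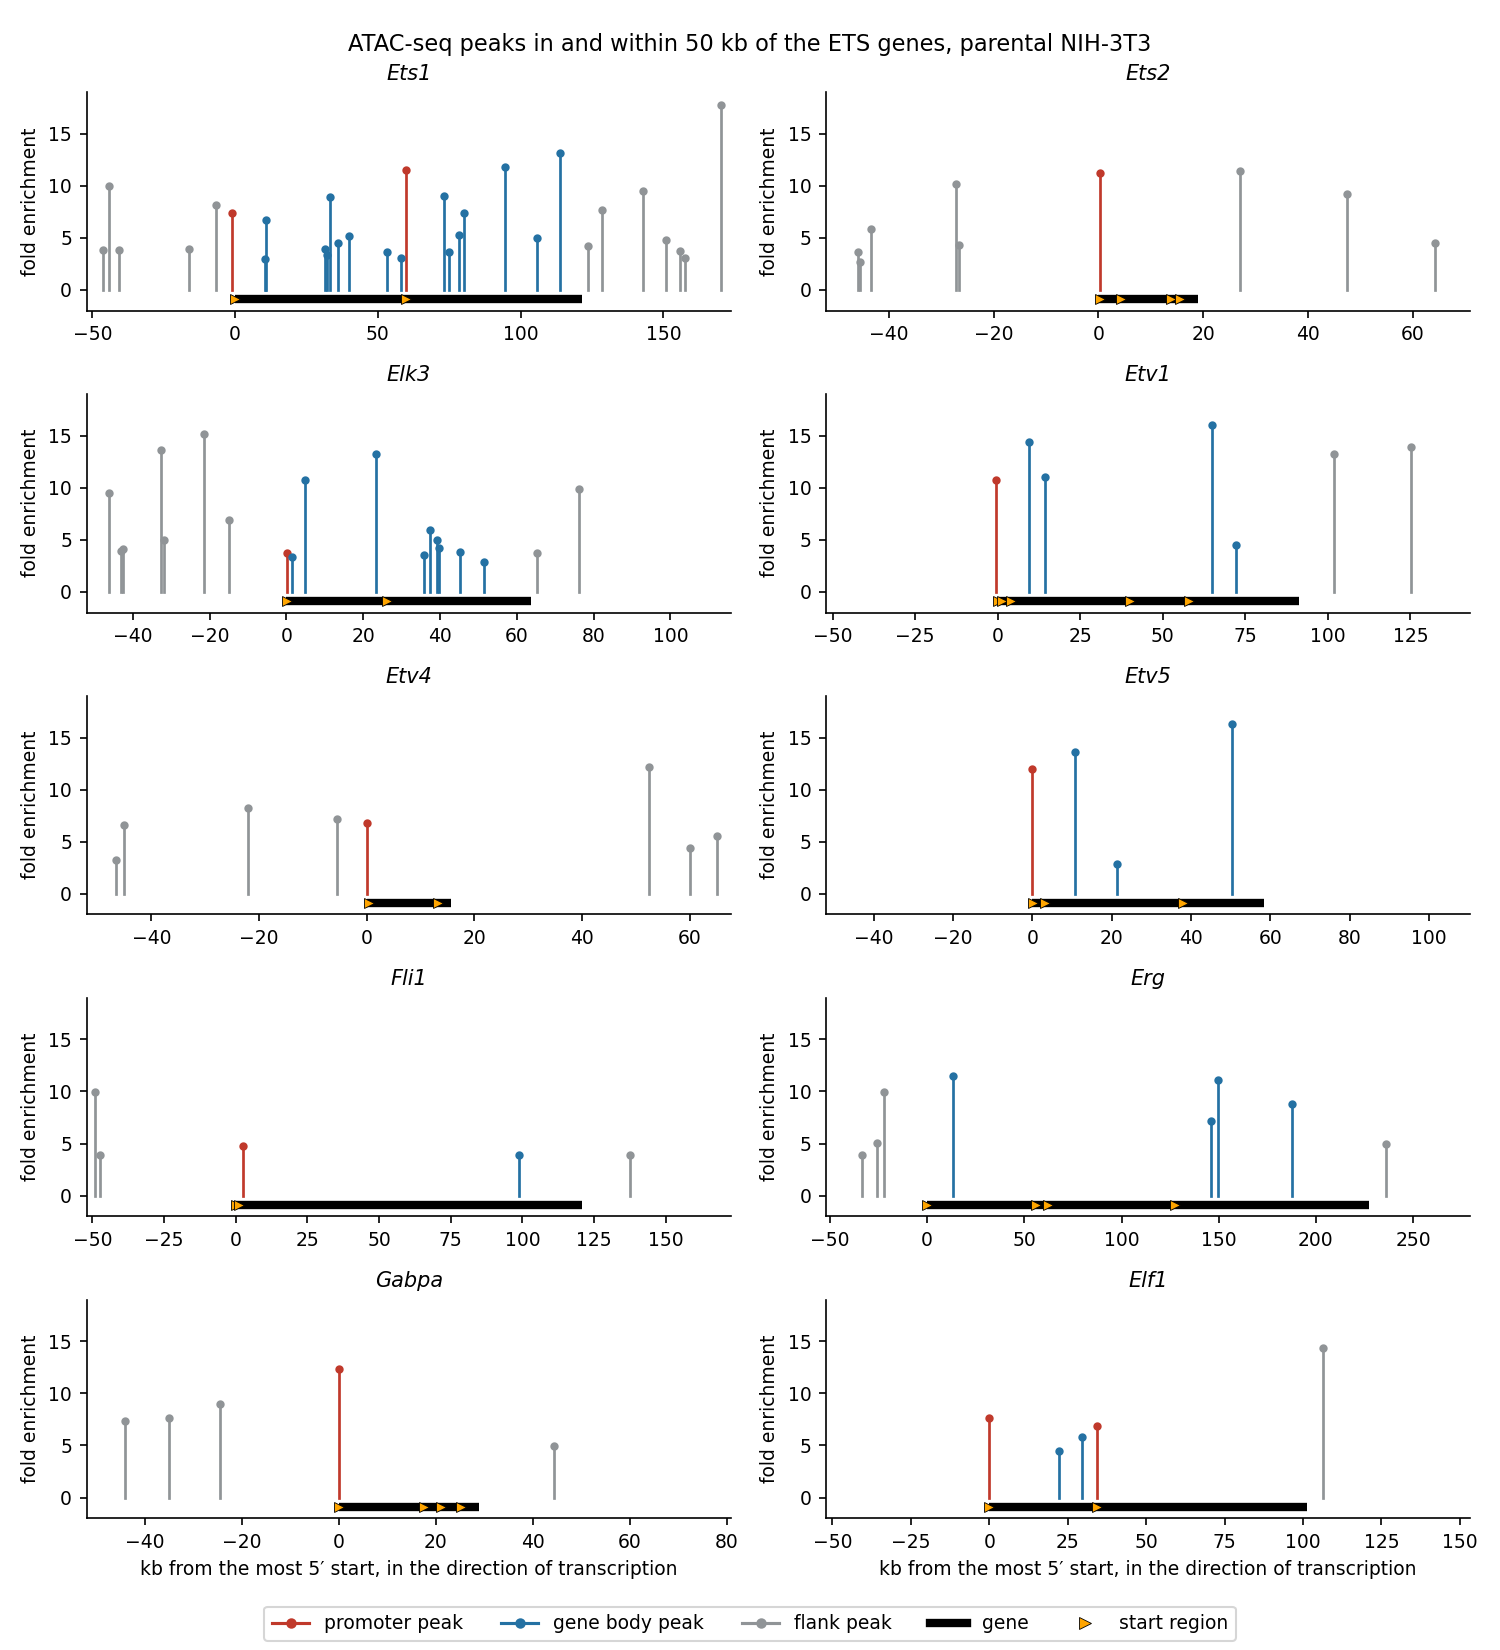
Peaks in and within 50 kb of each ETS gene, drawn as lines whose height is the fold enrichment, against the distance in kb from the most 5′ start in the direction of transcription; bars mark genes and triangles start regions. Ets1 and Elk3 hold 16 and 9 gene-body peaks, and Ets2, Etv4 and Gabpa hold none.

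Over the whole set, a gene-body peak was present at 7 of the 10 genes, compared with 34.3% of coding genes. A flank peak was present at 9 of 10, compared with 81.1%. The 34.3% is not matched for gene length. Among coding genes of similar length, the median number of gene-body peaks was 1 or 2 for Ets1, Elk3, Etv1, Etv5, Fli1 and Elf1. It was 4 for Erg, and 0 for Ets2, Etv4 and Gabpa, the genes without one. Having a gene-body peak was therefore ordinary at the lengths of the genes that had one. The 10 genes held 4.60 gene-body peaks per 100 kb and all coding genes 2.20. This was uneven, since Ets1 and Elk3 contributed 25 of the 39, at 13.2 and 14.1 per 100 kb. Etv1 and Etv5 held 4.39 and 5.14 per 100 kb. The other genes lay below 2.20, with 1.97 at Elf1, 1.76 at Erg, 0.829 at Fli1 and 0 at Ets2, Etv4 and Gabpa. The flank peaks include 4 at starts of other genes (Gm27163, Dhx8, Jam2 and Sugt1).

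The class of the strongest peaks depended on the measure. Of the 10 with the highest fold, 9 lay away from any annotated start, as did 81 of all 98, and 1 lay at a start of another gene. The first promoter peak, that of Gabpa, came at place 13. By summit fragments, 4 of the first 10 were promoter peaks and that of Gabpa came first, and by −log10 q 3 of the first 10 were and it came at place 2. As a class, the 81 peaks away from starts had a median fold of 5.24, close to the 5.54 of all such peaks. Their median of 33 fragments and width of 328 bp compare with 25 fragments and 278 bp for all. The 17 peaks near a start of any gene had a median fold of 8.95 against 8.03 for all peaks near starts.

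The genes have 30 start regions, of which 12 had a peak within 1 kb, or were overlapped by one in 10 cases, against 29.6% of the 52546 start regions of coding genes with a peak within 1 kb. By position, 8 of the 10 most 5′ start regions had a peak and 4 of the 20 later ones. The 4 were the coding starts of Ets1, and the second start regions of Etv1, Fli1 and Elf1. The split by position was not made over all coding genes, so it cannot be called particular to these genes.

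CpG islands are stretches that keep their CpG dinucleotides, and they mark most promoters of widely expressed genes. From 500 bp before to 500 bp after the middle of each start region, the ratio of observed to expected CpG was 0.6 or more at 9 regions, and all 9 had a peak, compared with 78.0% of such regions over coding genes. Below 0.6, a peak was found at 3 of 21 regions, compared with 14.4%. The 3 were the first start region of Etv1 (ratio 0.594), which shares its peak with the next, the non-coding starts of Ets1 (0.218) and the second start region of Elf1 (0.352). At the last 2 of these the peak held the AP-1 sequence. All 4 start regions of Erg were below the limit, the highest at 0.448, and the highest ratio without a peak was 0.576, at the first start region of Fli1. The weak promoter peak of Elk3 lay in a CpG-rich region with a ratio of 0.740 and 62.0% GC, at a lower fold than Gabpa, whose ratio was 0.760.

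**Figure D4:**
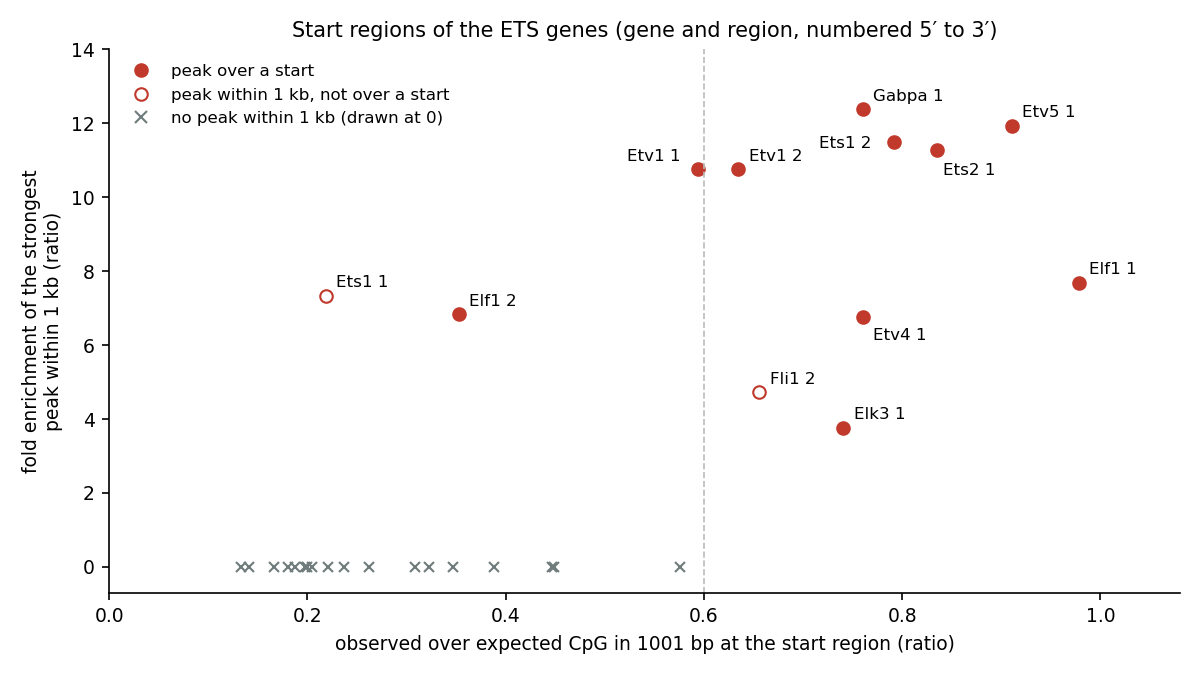
Fold enrichment of the strongest peak within 1 kb of each of the 30 start regions, against the ratio of observed to expected CpG around it, with filled circles for peaks over a start, open circles for peaks near one and crosses for none. All 9 regions at 0.6 or more (dashed line) have a peak, from fold 3.77 at Elk3 to 12.4 at Gabpa.

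Over all peaks in the list, the ETS sequence was more frequent near starts and the AP-1 sequence away from them. The counts of the 10 genes are set beside those shares. The ETS sequence was under 1 of the 11 promoter peaks, that of Gabpa, and with the Dhx8 start under 2 of the 17 peaks near any start, compared with 7.29% of all peaks near starts. Away from starts it was under 0 of 81 peaks, compared with 0.729% of all such peaks. For a share of that size 81 peaks are few. RefSeq promoter windows of 300 bp, 250 bp before to 50 bp after a start, were found for 7 of the genes (12 windows, not for Ets1, Etv4 and Fli1). The sequence was in 1 of the 12 windows, about the share of 8.86% over all 32851 windows. It was the Gabpa window, with the match at -93 bp from the start that RefSeq gives.

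AP-1 was under 33 of the 81 peaks away from starts (40.7%), compared with 31.9% of all such peaks. Near starts it was under 4 of 17, compared with 9.78%. Among those away from starts with a fold of 5 or more it was under 22 of 43 (51.2%), compared with 36.8%, and among the weaker ones under 11 of 38, compared with 25.1%. The genes varied, with 10 of 18 peaks away from starts at Elk3, 5 of 8 at Erg, 4 of 6 at Etv1 and 8 of 25 at Ets1. There were 2 of 8 at Ets2, 2 of 6 at Etv4, 1 of 3 at Etv5 and at Gabpa, 0 of 4 at Fli1 and 0 of 2 at Elf1. The share was thus 55.6% to 66.7% at Elk3, Erg and Etv1, and 33.3% or less at each other gene. Of the 10 strongest peaks by fold 6 held it, by −log10 q 4 and by summit fragments 3. For TEAD (CATTCC) the count was 8 of 81 against 9.52% of all peaks away from starts, and for RUNX (TGTGGTT) 2 of 81 against 5.05%. The CRE sequence TGACGTCA was under none of the 98, compared with 1.36% of all peaks near starts and 0.206% of those away from them. For shares of that size 98 peaks are few. A match of letters is a description of the window and does not show that a factor was bound.

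The 10 genes include 2 pairs of neighbours that point away from each other, Fli1 with Ets1 on chromosome 9 and Erg with Ets2 on chromosome 16. In each pair 1 gene is of the ERG group and the other is ETS1 or ETS2. No coding gene lies in the 93359 bp between Fli1 and Ets1 or in the 115481 bp between Erg and Ets2.

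The pairs were alike at the promoters and unlike within the genes. At the promoters the ETS1 or ETS2 gene had the stronger peak, with 136 fragments at Ets1 against 17 at Fli1, and 84 at Ets2 against none at Erg. Within the genes, the summit fragments of the gene-body peaks summed to 671 in Ets1 and 14 in Fli1, genes of nearly equal length (121600 and 120658 bp). In the other pair the order was turned, with 186 in Erg and 0 in the much shorter Ets2. The intervals between the genes held 6 and 8 summits. The strongest between Fli1 and Ets1 (fold 9.95) lay close to the middle, 49044 bp from Fli1 and 44316 bp from Ets1. Between Erg and Ets2 the strongest were 1 on each side, of fold 9.96 at 22229 bp from Erg and 10.1 at 27238 bp from Ets2.

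**Figure D5:**
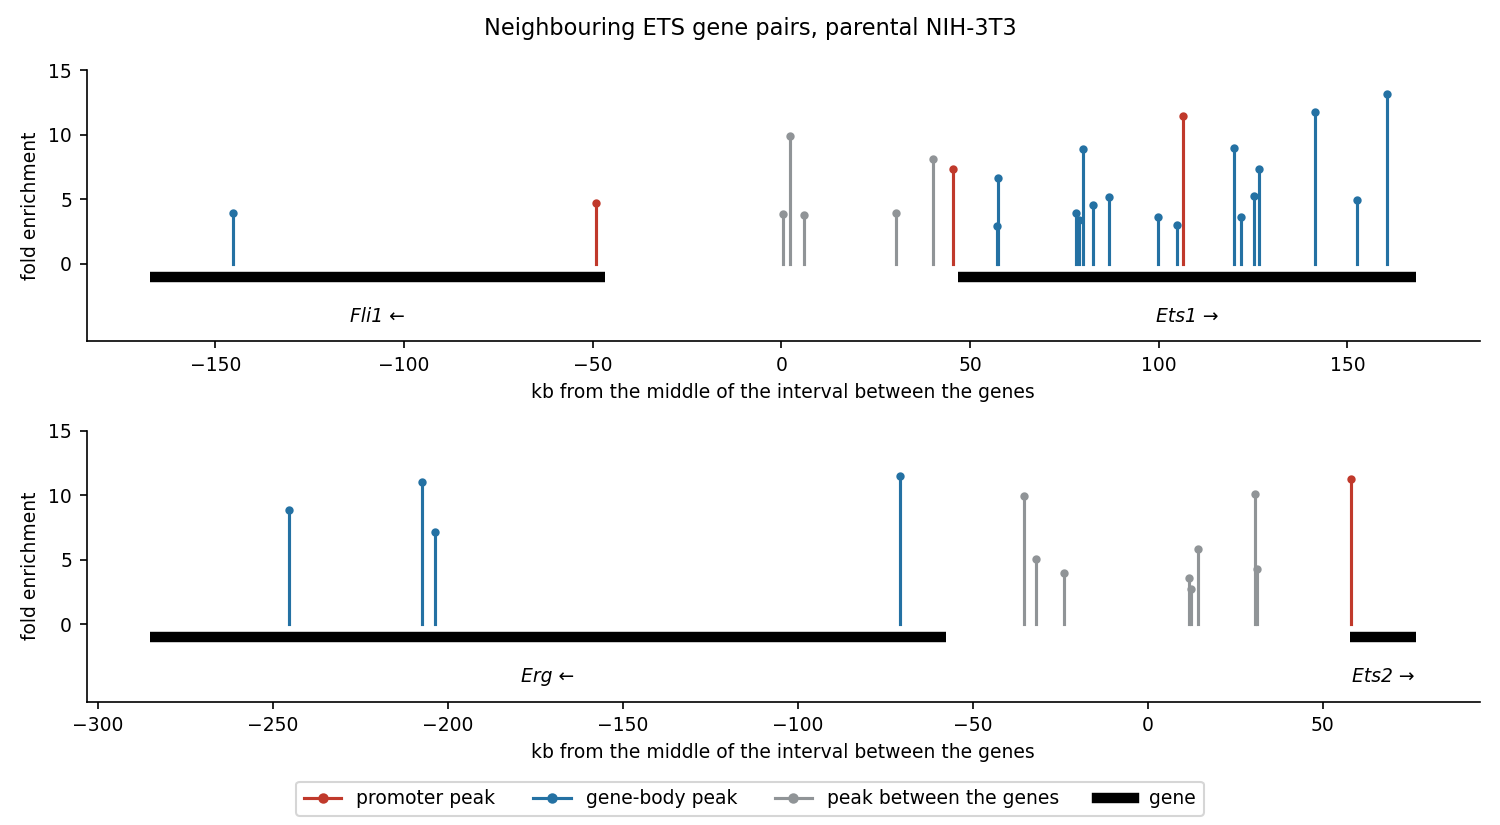
Peaks of the neighbouring pairs Fli1–Ets1 (top) and Erg–Ets2 (bottom), with fold enrichment on the vertical axis and kb from the middle of the interval between the genes on the horizontal axis; arrows give the direction of transcription. Fli1 holds 1 gene-body peak and Ets1 16, while Erg holds 4 and Ets2 none.

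The other 16 ETS genes of the mouse examined for comparison had a promoter peak in 10 cases, close to the 53.7% of all coding genes, with a median strongest fold of 7.11 against 9.86. The highest were Elf2 (15.3), Etv3 (13.1) and Etv6 (11.3), which are widely expressed repressors or activators. The lowest were Spi1 (3.22), the PU.1 gene of blood cells, Elf5 (4.20), an epithelial factor, and Elk4 (5.91), a relative of Elk3. No promoter peak was found for Etv2, Fev, Ehf, Spib, Spic and Spdef. Split by known expression after the values were seen, 7 of 7 widely expressed genes and 3 of 9 lineage-restricted genes had one. Because the groups were assigned with the values known, this split is a description only and tests no link with expression. The restricted genes reached at most 6.09, and Fli1 (4.73) and Elk3 (3.77) were below this, as were the widely expressed Elk4 (5.91) and Erf (5.97).

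Genes of ETS partners, kinases and regulators had a promoter peak in 10 of 11 cases, against 53.7% of all protein-coding genes. Their median fold was 8.99, also below 9.86. The highest was Det1 (15.6), which with Cop1 (11.5) belongs to a ubiquitin ligase for ETS proteins, and the lowest was Mapk3 (5.21), the gene of ERK1. Rps6ka1, a kinase downstream of ERK, had none. The partners of GABPA, Gabpb1 (8.06) and Gabpb2 (8.21), had lower folds than Gabpa itself. Srf, the partner of ELK3, stood at 7.05 with 77 fragments, above the 29 of Elk3. Cic, the repressor of the PEA3 group, stood at 10.3.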

How the data were processed

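The data are the peaks of 1 ATAC-seq library of the parental NIH-3T3 line. According to the submitters' processing notes and the methods, reads were aligned to mm10 with STAR 2.5.3a, unique reads on chromosomes 1 to 19, X and Y were kept, duplicates were removed with Picard, and peaks were called with MACS2 2.1.1.20160309 on whole fragments, without pooling. The methods describe no shift of fragment ends for Tn5. For every peak the authors deposited its fold enrichment (a ratio), −log10 p, −log10 q and score. The score was not used. The expected pileup comes from the library itself, so fold is lowered in regions dense in fragments.

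Fragments under a summit were solved from the deposited fold and −log10 p, which recovered 100% of 5000 simulated summits. In the list 99.997% of pileups were within 0.02 of a whole number. Genes and starts came from GENCODE M21 (GRCm38, the build of the peaks). Start regions join starts at most 500 bp apart. Sequences were searched on both strands from 50 bp before to 50 bp after the summit.

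Named were all 10 genes, their promoter peaks (for Erg the nearest peaks), the strongest gene-body and flank peaks, and the highest, lowest and missing genes among the other ETS genes and the partners. Marker genes check the cell line. Further peaks, the CpG limit of 0.6, the AP-1 split at fold 5 and other values were added after they were seen. The members and lists were chosen with earlier results of these data known. Alternatives were other peak thresholds, distances, flanks, start sets and windows. Calculations used Python 3.11.15, NumPy 2.4.6, SciPy 1.17.1 and matplotlib 3.10.9.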

Additional observations from a re-analysis of the deposited data

How the results depend on the processing

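Of 41 alternatives, 31 left a count within 1.5 times its value and 10 moved it. With a distance of 5 kb to a start, the promoter peaks of the 10 genes rose in number from 11 to 17. With a minimum fold of 5, the gene-body peaks dropped from 39 to 21 and the flank peaks from 48 to 27, and flanks of 20 kb or 100 kb gave 14 or 86, as fewer or more peaks can then enter. Ordered by summit fragments or by −log10 q, 3 of the 9 genes with a promoter peak kept the place they had by fold. In an order chosen after seeing the data, the 10 strongest peaks held 0 promoter peaks by fold, 4 by summit fragments and 3 by −log10 q, and 6, 3 and 4 with AP-1. Genes with a promoter peak numbered 7 to 9, and Erg had none in any of these alternatives. The lowest number came with a minimum fold of 5, where Elk3 and Fli1 were lost and the share of all coding genes was 48.8%. Other ETS genes with one numbered 8 to 12, the most with a distance of 5 kb, where that share was 62.8%. No paired analysis was possible because the peaks come from a single library. The values have no replicate error, and depth limits weak sites such as those of Fli1, which had 17 fragments or fewer in the gene.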

Other observations

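Among the other ETS genes, Etv6, a repressor best known from blood cell fusions, had 10 gene-body peaks beside its promoter peak of fold 11.3 with 120 fragments. Elf2 had 4 promoter peaks, the strongest at fold 15.3 with 144 fragments, more than Gabpa. Elk4, a relative of Elk3, combined a low fold of 5.91 with 79 fragments at its promoter. Of the endothelial markers, Cdh5 had a promoter peak of fold 12.8 with 114 fragments, higher in fold than any promoter of the 10 genes. Pecam1 (8.40) and Vwf (6.33) had weaker ones. These genes were picked out after their values were seen.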
